A study of Mus musculus with 6 samples.

Results

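The histone cluster genes are the genes whose symbols begin with Hist1h, Hist2h, Hist3h or Hist4h, and they make up 67 of the 25001 loci measured in 6 RNA-seq libraries of a mouse thymoma cell line. They were found by symbol alone, with 1 locus per symbol. Of the 67 genes, 55 carry a Hist1 symbol, 10 a Hist2 symbol, 1 a Hist3 symbol and 1 a Hist4 symbol. By the protein class in the symbol, 6 belong to linker histone H1, 18 to H2A, 18 to H2B, 12 to H3 and 13 to H4. Hist1h2al in the H2A class is annotated as a processed pseudogene.

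The line, called 427 cells in the study, makes the membrane serine protease epithin/PRSS14, the product of St14. In the study, EICD is the intracellular domain of this protease, SPPL2b is the intramembrane protease knocked down in 4 of the 6 libraries, and PMA is a phorbol ester that induces shedding of the ectodomain. The 427 cells carried the pSUPER vector, were kept without serum for 2 h and then received DMSO or 1 µM PMA for 2 h. Cells labelled as SPPL2b knockdown (KD) received the same, or took up a GFP vector by transfection, without (KD/GFP) or with (KD/GFP+EICD) Flag-N55, which encodes EICD, and were sorted for GFP. The labels name an siRNA against SPPL2b, whereas the study's methods describe a stable shRNA line that is a single clone. These descriptions differ, so in KD against 427 an effect of the knockdown and a difference of the clone cannot be told apart. There was 1 library per condition, so no difference below has a replicate check, no p-value was computed, and each comparison describes the libraries and not the conditions.

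The targeted gene Sppl2b was not lower in the libraries labelled KD, with an FPKM of 9.90 and 6.86 in 427 cells with DMSO and PMA, 13.4 and 9.37 in the KD library with DMSO and with PMA, and 11.4 and 13.2 in KD/GFP and KD/GFP+EICD. FPKM is a level scaled to exon length and to library depth. The study, in contrast, presents its clones as knocked down, with SPPL2b mRNA measured by real-time PCR, and reports less PMA-induced EICD in them. Because the Sppl2b FPKM differs from this, KD below means a library labelled so. St14, part of whose coding sequence is in the EICD construct, was at 69.6 FPKM in KD/GFP and 614.5 in KD/GFP+EICD. All 6 measured thymic epithelial markers passed 1 FPKM in every library, with Krt14 between 1355 and 3820, while the 6 T cell markers summed to between 0.0304 and 0.304. Of the fibroblast markers, none reached an FPKM of 1, and among macrophage and dendritic cell markers Cd68 and Csf1r did, at 1.25 to 2.58 and 2.37 to 7.35. The steps between the lowest FPKM values gave an estimated depth of 26000000 to 30300000 fragments per library.

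Most histone cluster genes are replication-dependent. Their mRNAs rise in S phase, when new DNA needs histones, and they are the known class of animal mRNAs that end in a stem-loop in place of a poly(A) tail. The stem-loop binding protein SLBP holds this end, and the U7 snRNP with the CPSF nuclease makes it by a cut a few bases after the loop. H2A, H2B, H3 and H4 form the core of the nucleosome and H1 binds the DNA that enters and leaves it. Replacement variants such as H3f3a, H3f3b and H1f0 lie outside the clusters, have poly(A) tails and are made throughout the cell cycle. The libraries here were made from RNA selected with oligo(dT), so mRNA without a poly(A) tail was not aimed at. How much each member's low value comes from this selection cannot be told apart from low transcription, since no library without the selection was analysed here.

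The end signal was searched after the stop codon in the GENCODE M21 transcript of each member. It was defined as a 6-base stem starting with GG, a 4-base loop starting with TTT and the exact reverse complement of the stem. A stem-loop of another form would be missed. All 67 members could be matched to a transcript, and the signal so defined was found in 42. The same 16 bases, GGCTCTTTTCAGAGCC, were present in 24 of the 42, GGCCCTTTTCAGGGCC in 7 and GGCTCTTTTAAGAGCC in 6. Of the other 25 members, 15 have fewer than 20 annotated bases after the stop codon, so the signal may lie outside the model. The sites of the 6 leading members with a stem-loop are shown because the levels below are read against them. The capitals mark stem and loop, the coordinates are GRCm38, and each site lies in the 3′ UTR of the last exon.
Hist1h4i (chr13:22040961-22040986, minus strand): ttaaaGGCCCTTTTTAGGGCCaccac
Hist1h1c (chr13:23739507-23739532, plus strand): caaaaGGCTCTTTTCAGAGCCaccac
Hist1h2bj (chr13:22043633-22043658, plus strand): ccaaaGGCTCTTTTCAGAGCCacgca
Hist1h4n (chr13:21831793-21831818, minus strand): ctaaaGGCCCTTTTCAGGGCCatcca
Hist1h3c (chr13:23745042-23745067, minus strand): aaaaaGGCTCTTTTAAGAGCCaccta
Hist1h2ap (chr13:21833026-21833049, minus strand): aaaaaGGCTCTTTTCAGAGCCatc

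In the gene models of the deposited files the members differed in how far they ran past this site. The Hist1h1c model ran 840 bases and the Hist1h4i model 330 bases beyond the stem-loop, whereas the RefSeq models of both genes end 4 and 6 bases after it. The models of Hist1h2bj, Hist1h4n, Hist1h3c and Hist1h2ap ended 23, 31, 34 and 3 bases after the stem-loop. A model that ran past the site did not go with a high level throughout, since Hist4h4 with 2445 bases beyond the stem-loop had a mean of 0.126 FPKM. In the GENCODE M21 transcripts, AATAAA, the poly(A) signal, was present after the stop codon in 18 members, 12 with a stem-loop and 6 without. These transcripts have the same span as the deposited models in 41 of the 67 members. In the others a signal may lie outside the model that gave the FPKM. The Hist1h1d transcript has 7425 bases and its deposited model 744. The medians that follow sort members by the transcript, not by the model that was measured. The median of the members' mean FPKM was 0.193 with a stem-loop alone, 0.140 with both signals, 0.151 with AATAAA alone and 0.116 with neither, and each of these groups held members at 0 or below 0.01 as well as members that reached 1 FPKM.

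The histone cluster genes were measured at very low levels. Of the 67 members, 10 (14.9%) reached an FPKM of 1 in any library, against 46.3% of all loci. The remaining 57 were below 1 in all 6 libraries, and 9 of these were listed at 0 throughout, 13.4% of the members against 22.5% of all loci. Above 0 in all 6 libraries were 23 members. Summed over all members, FPKM was 22.3 and 24.04 in 427 cells with DMSO and PMA, 23.5 and 18.7 in the KD libraries with DMSO and PMA, 34.7 in KD/GFP and 30.1 in KD/GFP+EICD. Both transfected libraries were thus above the other 4. Hist1h4i alone made up between 16.7% of the sum, in KD/GFP, and 34.1%, in 427 cells with PMA.

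**Figure D1:**
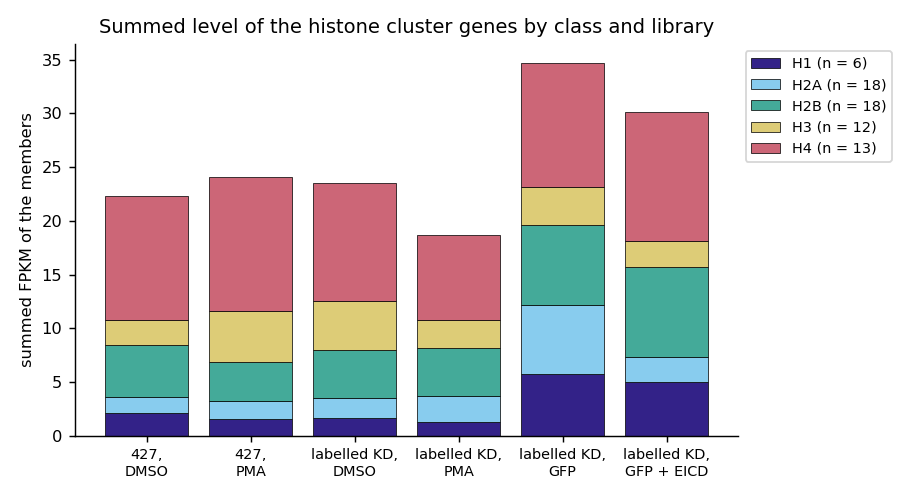
Summed FPKM of the 67 histone cluster genes in each library, stacked by class, with 1 library per bar and therefore no error bars. The bars of KD/GFP (34.7) and KD/GFP+EICD (30.1) stand above the other 4 (18.7 to 24.04), and H4 is the widest segment in every bar.

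The order of the classes was led by H4, whose 13 members summed to 7.90 to 12.4 FPKM over the libraries. The 18 H2B members summed to 3.66 to 8.41, the 12 H3 members to 2.36 to 4.72, the 18 H2A members to 1.56 to 6.47 and the 6 H1 members to 1.27 to 5.73. The ranges of H1, H2A, H2B and H3 overlap. H1 and H2A had their highest sum in KD/GFP, H2B in KD/GFP+EICD, and H3 and H4 in 427 cells with PMA. Listed at 0 in all 6 libraries were 6 of 18 H2A members, and 1 each of H1, H2B and H4, but none of H3.

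A fragment is worth more FPKM in a short gene. The estimated depth put a fragment at 0.111 to 0.255 FPKM in the 36 members under 500 bases that could be estimated, and at 0.0124 to 0.0282 FPKM in the 5 of 1000 bases or more. Fragments could be estimated for 57 members with a single annotated exon in the files, and 73.3% of the 120 estimates above 0 and below 3.5 lay within 0.2 of a whole number. The depth was itself fitted to whole-number steps, so this share is not an independent check. Over these 57 members the estimate was 330 and 313 fragments in 427 cells with DMSO and PMA, 251 and 235 in KD with DMSO and PMA, 407 in KD/GFP and 419 in KD/GFP+EICD. The fit also gave the bases by which each length was shortened, 235 in KD with DMSO and 175 to 205 in the other libraries. A larger value lowers the estimate, most for short genes. By summed FPKM over all members KD with DMSO was above 427 cells with DMSO (23.5 against 22.3), the reverse of the estimates. Of the 57, 47 had fewer than 10 fragments in every library. The exact 95% Poisson intervals given below are for these estimates and cover counting error only.

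Fragments can also be shared between members, since their coding sequences are near copies. Of the 67 members, 61 shared at least 1 stretch of 100 bases with the transcript of another gene, 28 shared at least 50% of their 100-base stretches, and 5 shared all of them. The share was 15.1% in Hist1h4i, 5.07% in Hist1h1c, 25.4% in Hist1h2bc, 40.1% in Hist1h2bj, 80.7% in Hist1h4n, 92.2% in Hist1h2ap and 79.3% in Hist1h2af. Levels of members with high shares are uncertain, because the counting could split or drop such fragments. For the same reason the 9 members at 0, with a median share of 63.6%, are described only as listed at 0. Only Hist3h2ba overlaps another locus of the files, Rnf187 on the opposite strand at 72.7 to 98.6 FPKM, and it was at most 0.0905 FPKM itself.

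Among the H4 genes, Hist1h4i (ENSMUSG00000060639, chr13:22040636-22041362, minus strand, 1 exon) was the only member to reach 1 FPKM in all 6 libraries. It was at 7.29 FPKM in 427 cells with DMSO and 8.20 with PMA, 6.22 in KD with DMSO, 3.92 in KD with PMA, 5.81 in KD/GFP and 6.40 in KD/GFP+EICD. This is an estimated 116 fragments (95.9 to 139), 129 (108 to 153), 84 (67.0 to 104), 63 (48.4 to 80.6), 80 (63.4 to 99.6) and 98 (79.6 to 119). The KD library with PMA was lowest and 427 cells with PMA highest, and the intervals of these libraries did not overlap.

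Hist1h4n was at 0.683 and 1.22 FPKM in 427 cells with DMSO and PMA, 1.502 and 0.706 in KD with DMSO and PMA, 1.97 in KD/GFP and 1.21 in KD/GFP+EICD, from 5 to 12 estimated fragments. Hist1h4k, whose locus in the files spans newly assembled isoforms, was at 0.701 and 0.150, 1.46 and 0.428, 0.588 and 1.44 in the same order. Its locus spans 4074 bases in the files and 409 in RefSeq, and 64.3% of its 100-base stretches are shared with other genes. It has no fragment estimate, so its ratios below have no interval and may come from the newly assembled isoforms. Neither H4 gene kept to a narrow range, with highest over lowest values of 2.89-fold and 9.74-fold. For Hist1h4i the same ratio was 2.09-fold.

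Among the H1 genes, Hist1h1c (ENSMUSG00000036181, chr13:23738808-23740367, plus strand, 1 exon), which encodes the linker histone H1.2, was at 1.69 FPKM in 427 cells with DMSO and 0.767 with PMA. It was at 1.13 in KD with DMSO, 0.762 in KD with PMA, 3.60 in KD/GFP and 3.82 in KD/GFP+EICD. Estimated fragments were 68 (52.8 to 86.2), 30 (20.2 to 42.8), 41 (29.4 to 55.6), 31 (21.1 to 44), 128 (107 to 152) and 152 (129 to 178). Both transfected libraries were above the other 4 with no overlap of intervals. The PMA library was the lower of each pair, with intervals that were apart in 427 cells and overlapped in KD.

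The other somatic H1 genes were lower. Hist1h1b (H1.5) was between 0.138 FPKM in KD with DMSO and 0.828 in KD/GFP, and Hist1h1e (H1.4) between 0.0457 in 427 cells with DMSO and 0.615 in KD/GFP. Hist1h1d (H1.3) reached 0.401 in KD/GFP+EICD and was listed at 0 in KD with PMA. Hist1h1a (H1.1) reached 0.362 in KD/GFP and was listed at 0 in 427 cells with DMSO and in KD with PMA. Hist1h1t, the linker histone of male germ cells, was listed at 0 in all 6 libraries.

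**Figure D2:**
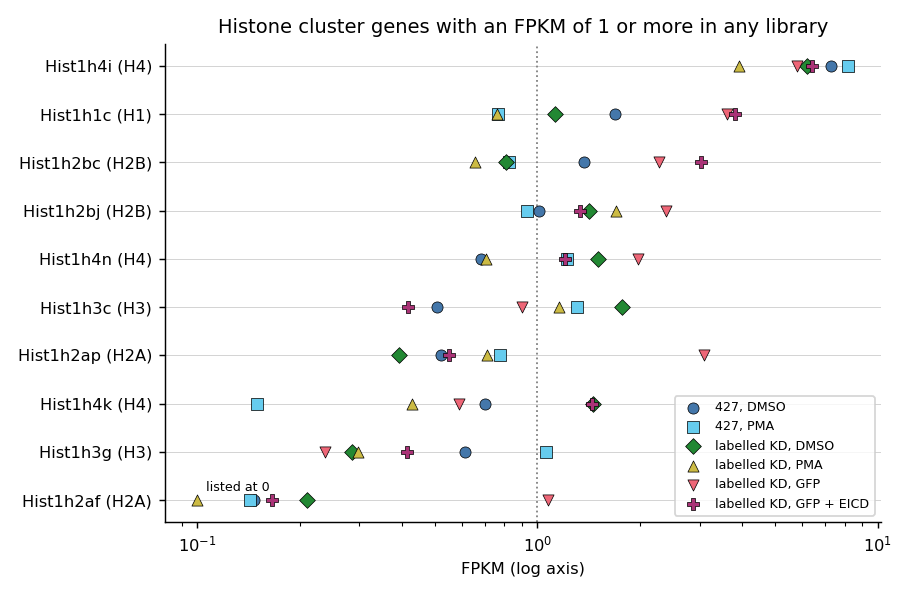
FPKM on a log axis of the 10 histone cluster genes that reached 1 FPKM in any library, 1 point per library, with the class in parentheses, the dotted line at 1 FPKM and the Hist1h2af value of 0 drawn at the left edge. Hist1h4i lies apart from the rest at 3.92 to 8.20, and the red triangle of KD/GFP is the rightmost point for Hist1h2bj, Hist1h4n, Hist1h2ap and Hist1h2af.

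Among the H2B genes, Hist1h2bc was at 1.37 and 0.827 FPKM in 427 cells with DMSO and PMA, 0.809 and 0.657 in KD with DMSO and PMA, 2.28 in KD/GFP and 3.03 in KD/GFP+EICD. Its matched transcript has 2 exons and AATAAA but no stem-loop. As with Hist1h1c, both transfected libraries were highest and the PMA library was the lower of each pair. Hist1h2bj was at 1.01, 0.933, 1.42, 1.70, 2.39 and 1.33 FPKM in the same order of libraries, from 8 to 17 estimated fragments, and all of its intervals overlapped.

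Hist2h2be, which has AATAAA and no stem-loop in a single exon of 2620 bases, was at 0.718 and 0.543 FPKM in 427 cells with DMSO and PMA, 0.428 and 0.381 in KD with DMSO and PMA, 0.333 in KD/GFP and 0.417 in KD/GFP+EICD. Its length made these values an estimated 51 (37.97 to 67.1), 38 (26.9 to 52.2), 28 (18.6 to 40.5), 28 (18.6 to 40.5), 21 (13 to 32.1) and 30 (20.2 to 42.8) fragments. It was highest in 427 cells with DMSO and lowest in KD/GFP, where Hist1h2bc was near its highest.

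Among the H2A genes, Hist1h2ap was at 0.520 and 0.774 FPKM in 427 cells with DMSO and PMA, 0.392 and 0.713 in KD with DMSO and PMA, 3.10 in KD/GFP and 0.549 in KD/GFP+EICD. Estimated fragments were 5 (1.62 to 11.7), 7 (2.81 to 14.4), 3 (0.619 to 8.77), 6 (2.20 to 13.1), 23 (14.6 to 34.5) and 4 (1.09 to 10.2). KD/GFP alone stood out, above the upper bound of the other 5. Hist1h2af was at 0.147, 0.143, 0.210, 0, 1.08 and 0.165 FPKM in the same order, which is 6 estimated fragments (2.20 to 13.1) in KD/GFP and 1 or 0 elsewhere, with overlapping intervals. Hist1h2ag was between 0.199 and 0.955 FPKM. Hist1h2aa, an H2A gene of testis, was listed at 0 throughout.

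Among the H3 genes, Hist1h3c was at 0.507 and 1.30 FPKM in 427 cells with DMSO and PMA, 1.77 and 1.16 in KD with DMSO and PMA, 0.901 in KD/GFP and 0.418 in KD/GFP+EICD, from 3 to 12 estimated fragments with overlapping intervals. Hist1h3g was at 0.611, 1.06, 0.286, 0.296, 0.238 and 0.412 in the same order. Hist1h3i reached 0.933 in KD with DMSO and was listed at 0 in 427 cells with DMSO.

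The 9 members at 0 in all 6 libraries were Hist1h1t, Hist1h2aa, Hist1h2ad, Hist1h2al, Hist1h2ao, Hist2h2aa1, Hist2h2aa2, Hist1h2ba and Hist1h4m. In any 1 library a count of 0 allows up to 3 fragments, which is 0.187 to 0.766 FPKM for these genes of 378 to 729 bases. They include Hist1h1t, Hist1h2aa and Hist1h2ba, which are known for expression in male germ cells, and Hist1h2al, annotated in GENCODE as a processed pseudogene.

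**Figure D3:**
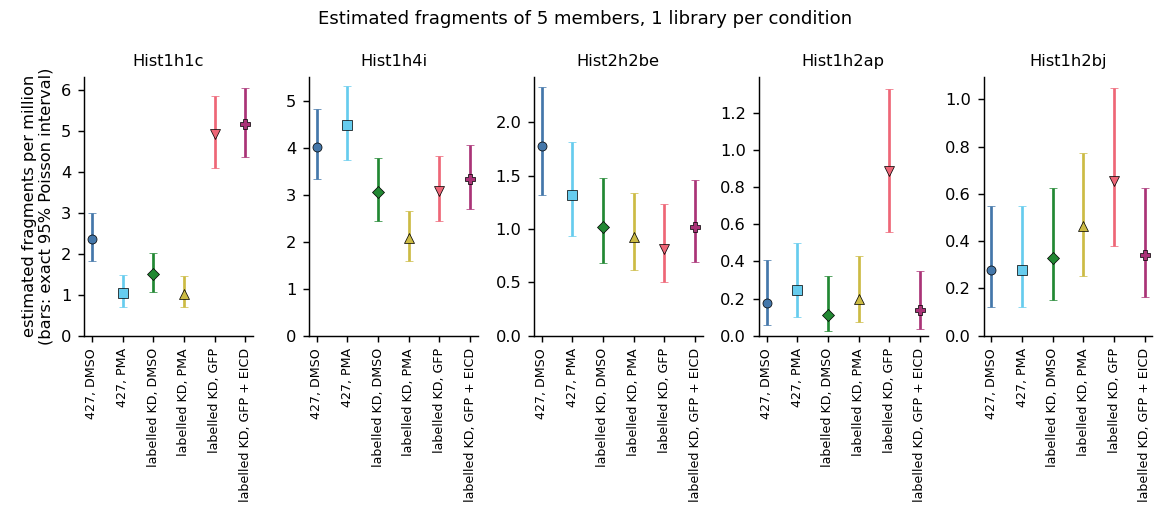
Estimated fragments scaled to the depth of each library for 5 members, as points with exact 95% Poisson intervals for counting error, each panel with its own axis from 0. Both transfected libraries lie above the other 4 for Hist1h1c, KD/GFP alone does so for Hist1h2ap, and the intervals overlap in all 6 libraries for Hist1h2bj.

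The position in the genome followed the clusters. Of the Hist1 members, 23 lie within 328 kb on chr13:21715763-22043676 and 31 within 404 kb on chr13:23531050-23934851, and each block held 5 of the 10 members that reached 1 FPKM. Hist1h2al lies apart on the same chromosome. The 10 Hist2 members lie within 50 kb on chr3:96219865-96270132, and none reached an FPKM of 1. The median of the members' mean FPKM was 0.150 in the first Hist1 block, 0.182 in the second and 0.0617 in Hist2.

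In 427 cells, PMA against DMSO, the comparison set up to raise EICD by shedding, left most measurable members within 2-fold. A log2 ratio of FPKM with 0.01 added was taken for loci above 0 in both libraries that reached 1 FPKM in either, which 7 of the 67 members met. Hist1h3c was more than 2-fold higher (log2 ratio 1.35) and Hist1h1c more than 2-fold lower (-1.13), and 5 were within 2-fold. Over all 10963 such loci, 4.36% were past 2-fold upward and 4.93% downward, and among those with an FPKM of 1 to under 10 in the higher library 6.64% and 12.5%. The other members by size were Hist1h4n (0.83), Hist1h3g (0.78), Hist1h4i (0.17), Hist1h2bj (-0.12) and Hist1h2bc (-0.73). The median was 0.17 over the 7 members and -0.12 over all loci. A member that passed the minimum through 1 library alone had to be higher in that library, here and in the comparisons below, so these medians and counts are descriptions only.

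With the minimum lowered to 0.1, 27 members had a ratio, with 3 past 2-fold upward and 3 downward, against 6.46% and 10.2% of all loci. Of these 14732 loci 10963 reached 1 FPKM in either library, against 7 of the 27 members. The shares of members and of all loci are thus not matched for level, here and below. With PMA, 8 members went to 0 and 11 came up from 0, all below an FPKM of 1. For Hist1h1c the intervals of the estimated fragments in these libraries did not overlap, and for Hist1h3c they did. Both calls were within 2-fold when 1 FPKM was added to both libraries.

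In the KD line, PMA against DMSO, in which release of EICD was meant to be blocked, left no member past 2-fold upward and 2 past it downward among the 6 with a ratio. Those were Hist1h4k (log2 ratio -1.75) and Hist1h4n (-1.08). Over all 10959 loci 3.68% were past 2-fold upward and 6.32% downward, and 5.14% and 14.7% among those with an FPKM of 1 to under 10. Hist1h4i was at -0.66, Hist1h3c at -0.61, Hist1h1c at -0.56 and Hist1h2bj at 0.26. The median was -0.64 over the 6 members and -0.15 over all loci. With the minimum lowered to 0.1, 5 of 29 members were higher and 8 lower, against 6.63% and 11.7% of all loci, and none of those with an estimate had 10 or more fragments in either library. The median was then -0.30 over the 29 members and -0.17 over all loci. Of these 14804 loci 10959 reached 1 FPKM in either library, against 6 of the 29 members. The shares of members and of all loci are thus not matched for level, and whether there is an excess cannot be read from them. The value of Hist1h4n was -0.99 when 0.1 FPKM was added to both libraries.

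The KD library with DMSO was compared with 427 cells with DMSO, libraries that also serve as the controls of the PMA comparisons. Of 7 members with a ratio, 3 were more than 2-fold higher in KD, Hist1h3c (log2 ratio 1.78), Hist1h4n (1.13) and Hist1h4k (1.05), and none lower. Over all 11030 loci 3.76% were higher and 2.88% lower, and 8.23% and 7.08% among those with an FPKM of 1 to under 10. The largest decreases were in Hist1h2bc (-0.76), Hist1h1c (-0.58) and Hist1h4i (-0.23), all within 2-fold. Hist1h2bj was at 0.48. At a minimum of 0.1, 8 of 30 members were higher and 4 lower, against 8.41% and 6.74% of all loci, and the median over these 30 was -0.03. Of these 14830 loci 11030 reached 1 FPKM in either library, against 7 of the 30 members. The shares are thus not matched for level, and whether there is an excess cannot be read from them. The KD line is labelled as a knockdown, but its Sppl2b FPKM was not lower, so the direction here belongs to the line as labelled. With 1 FPKM added to both libraries none of the 3 was past 2-fold.

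EICD was compared in transfected KD cells, KD/GFP+EICD against KD/GFP, the comparison meant for the direct effect of EICD. Of 8 members with a ratio, Hist1h4k was more than 2-fold higher (log2 ratio 1.28), while Hist1h2af (-2.63) and Hist1h2ap (-2.47) were more than 2-fold lower. Over all 10986 loci 3.85% were higher and 0.792% lower, and 8.95% and 1.93% among those with an FPKM of 1 to under 10. Hist1h2bc (0.41), Hist1h4i (0.14), Hist1h1c (0.09), Hist1h4n (-0.70) and Hist1h2bj (-0.84) were within 2-fold. The median was -0.31 over the members and 0.07 over all loci, and 0.42 and 0.35 when both libraries were scaled to the same sum without the 10 largest loci. The KD/GFP+EICD values of Hist1h2ap (0.549 FPKM) and Hist1h2af (0.165 FPKM) lay within the range of the 4 libraries that were not transfected. Both passed the minimum through KD/GFP alone, and the intervals of the estimated fragments overlapped for Hist1h2af.

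At a minimum of 0.1, 4 of 35 members were more than 2-fold higher and 9 (25.7%) lower with EICD, against 8.91% and 3.70% of all loci. Of these 14981 loci 10986 reached 1 FPKM in either library, against 8 of the 35 members. The shares are thus not matched for level, and whether there is an excess cannot be read from them. The 9 lower members were Hist1h1a, Hist1h1e, Hist1h2ab, Hist1h2af, Hist1h2ak, Hist1h2ap, Hist1h3c, Hist1h3i and Hist1h4h. Their estimated fragments were 3 to 23 in KD/GFP and 1 to 4 in KD/GFP+EICD, and only Hist1h2ap had 10 or more. The 4 higher members were Hist1h2bb, Hist1h2bf, Hist1h3a and Hist1h4k. The median over the 35 members was 0.26, of the opposite sign to that over the 8.

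**Figure D4:**
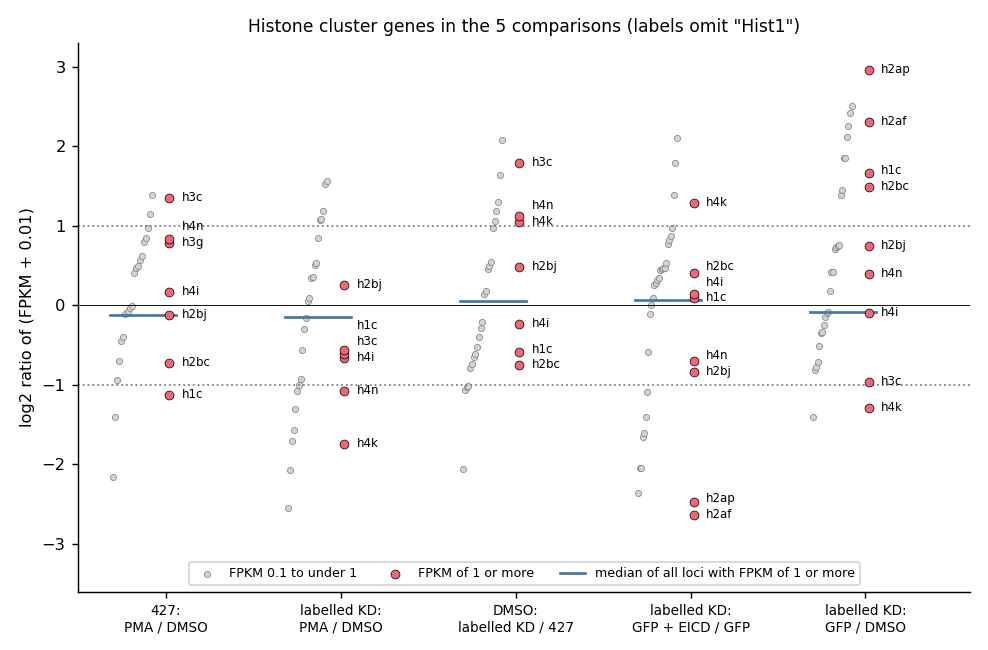
Log2 ratios of the histone cluster genes in the 5 comparisons, with members that reached 1 FPKM in red and named, members between 0.1 and 1 in grey, dotted lines at 2-fold and blue bars at the median of all loci that reached it. Hist1h2ap and Hist1h2af are at 2.95 and 2.31 for KD/GFP against KD with DMSO and at -2.47 and -2.63 for EICD, with KD/GFP in both comparisons.

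The KD/GFP library was compared with the KD library with DMSO as a background for transfection, and it had the most members past 2-fold. Of 9 members with a ratio, 4 were more than 2-fold higher in KD/GFP, Hist1h2ap (log2 ratio 2.95), Hist1h2af (2.31), Hist1h1c (1.66) and Hist1h2bc (1.48), and Hist1h4k (-1.30) was lower. Over all 11025 loci 3.85% were higher and 4.97% lower, and 7.38% and 12.6% among those with an FPKM of 1 to under 10. Hist1h2bj (0.75), Hist1h4n (0.39), Hist1h4i (-0.10) and Hist1h3c (-0.97) were within 2-fold. The median was 0.75 over the 9 members, of which Hist1h2ap, Hist1h2af and Hist1h2bc passed the minimum through KD/GFP alone, and -0.08 over all loci. With both libraries scaled to the same sum without the 10 largest loci it was 0.13 over the members and -0.35 over all loci. Transfection, sorting, the time without serum and DMSO all differ between these libraries and cannot be told apart.

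At a minimum of 0.1, 12 of 35 members (34.3%) were more than 2-fold higher in KD/GFP and 2 lower, against 8.07% and 11.0% of all loci. The median was 0.42 over the 35 members and -0.09 over all loci. Of these 14809 loci 11025 reached 1 FPKM in either library, against 9 of the 35 members. The shares are thus not matched for level, and whether there is an excess cannot be read from them. The 12 include 5 of the 6 H1 genes, Hist1h1b (log2 ratio 2.502), Hist1h1a (2.11), Hist1h1e (1.85), Hist1h1c (1.66) and Hist1h1d (1.45). The remaining H1 gene, Hist1h1t, was listed at 0. All 5 stayed past 2-fold under both scalings tried and with 0.1 FPKM added to both libraries, and 1 did with 1 FPKM added. Of the 9 of these 12 members with an estimate, 3 had 10 or more fragments, so Hist1h1a, Hist1h1d and Hist1h1e rest on few fragments, at most 9 in KD/GFP, while Hist1h1b has no estimate. Over the 57 estimated members there were 15.7 fragments per 1000000 (14.2 to 17.3) in KD/GFP, 14.2 (12.9 to 15.7) in KD/GFP+EICD and 9.16 (8.06 to 10.4) in KD with DMSO. Without Hist1h4i and Hist1h1c these were 7.66 (6.63 to 8.80), 5.75 (4.91 to 6.68) and 4.64 (3.86 to 5.52). The fit shortened each length by 195, 205 and 235 bases in these libraries, which lowers the estimates most in KD with DMSO. The intervals do not cover this.

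The replacement variants, a list of 13 genes, were measured far above the cluster genes. In the 6 libraries H3f3b was at 606 to 1262 FPKM, H3f3a at 301 to 498 and H2afz at 453 to 579, and Cenpa, the histone H3 of centromeres, at 84.3 to 133. The 12 H3 cluster genes together summed to at most 4.72 FPKM. H2afx, which serves in the DNA damage response, was at 9.13 to 20.8, H2afy at 63.3 to 78.2, H2afv at 29 to 45.7, H2afj at 34.5 to 68.9 and H2afy2 at 1.25 to 3.15. H1fx and H2afb1 were listed at 0 in all 6 libraries and Hils1 reached 0.0498.

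H1f0, the linker histone H1.0 gene outside the clusters, was at 57.8 and 24.2 FPKM in 427 cells with DMSO and PMA, 75.6 and 34.4 in KD with DMSO and PMA, 172 in KD/GFP and 357 in KD/GFP+EICD. It was the only variant past 2-fold in any comparison, with log2 ratios of -1.25 and -1.13 for PMA in 427 and KD cells, 1.19 for KD/GFP against KD with DMSO and 1.05 for EICD. For KD/GFP against KD with DMSO the value was 0.93 when the libraries were scaled to the same sum without the 10 largest loci. Several of these comparisons share libraries. Hist1h1c was at -1.13 and -0.56 for PMA in 427 and KD cells, 1.66 for KD/GFP against KD with DMSO and 0.09 for EICD. For H3f3b the EICD ratio was 0.61.

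**Figure D5:**
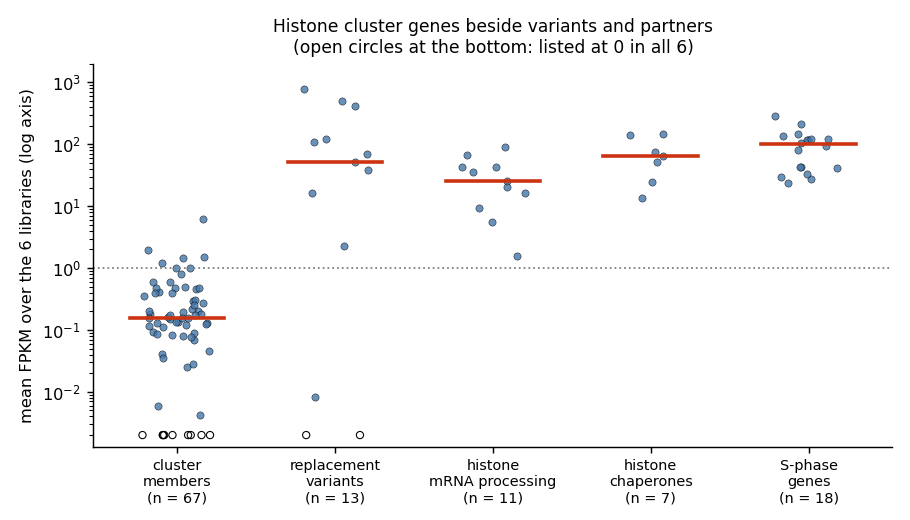
Mean FPKM over the 6 libraries on a log axis for the 67 histone cluster genes, the replacement variants, histone mRNA processing genes, histone chaperones and S-phase genes, with red bars at the median and open circles for genes at 0 throughout. The median of the cluster genes is 0.153, while the genes of the histone mRNA processing, chaperone and S-phase lists lie above the dotted line at an FPKM of 1.

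Genes that process histone mRNA were measured well above the cluster genes, and all 11 listed passed 1 FPKM in every library. Slbp was at 58.2 to 75.7, Casp8ap2 at 20.8 to 34.1 and Npat, the cyclin E/CDK2 target that switches on histone transcription, at 15.4 to 17.9. Lsm10 and Lsm11 of the U7 snRNP were at 8.11 to 10.8 and 4.53 to 6.56, and Eri1, an exonuclease that trims the histone mRNA end, at 27.5 to 45.7. Cpsf2, Cpsf3, Sympk and Cstf2 of the cleavage complex were at 31.6 to 53.0, 16.9 to 21.99, 38.01 to 48.4 and 74.6 to 105.8, and Zfp473 at 1.11 to 2.34. None of the 11 was past 2-fold in any of the 5 comparisons, and the medians of their log2 ratios lay between -0.18 and 0.20.

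Of 9 histone chaperones listed, 7 were measured, and none was past 2-fold in any comparison. Nasp, a carrier of H3-H4 and H1, was at 124 to 168 FPKM and Hjurp, the chaperone of Cenpa, at 97.9 to 192. Chaf1a and Chaf1b of the replication-coupled complex CAF-1 were at 43.98 to 62.4 and 58.2 to 76.6. Atrx and Daxx, which deposit H3.3, were at 60.2 to 87.8 and 21.6 to 26.9, and Asf1a at 11.1 to 15.4. Asf1b and Hira were not analysed here.

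The S-phase genes, against which replication-dependent histone mRNA is usually read, were high in every library. Of 20 listed, 18 were measured, all at an FPKM of 18.3 or more, with a list median of 85.0 to 110 FPKM. Pcna was at 274 to 308, Mcm7 at 178 to 241, Mcm2 at 101 to 145, Mcm3 at 118 to 159, Mcm4 at 99.1 to 131, Mcm5 at 103 to 140 and Mcm6 at 100.3 to 149. The ribonucleotide reductase genes Rrm1 and Rrm2 were at 90.02 to 125 and 120 to 165, Tyms at 71.4 to 90.4 and Pola1 at 27.0 to 39.3. The cyclin genes Ccna2, Ccne1 and Ccne2 were at 77.0 to 115, 21.4 to 32.7 and 18.3 to 27.99, and E2f1 at 24.4 to 36.7. Cdc6, Cdc45 and Gins1 were at 33.4 to 51.0, 37.8 to 50.6 and 35.8 to 48.4. None of the 18 was past 2-fold in any of the 5 comparisons, and their median log2 ratio was -0.14 for KD/GFP against KD with DMSO. Cdt1 and Gins2 were not analysed here.

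The members also shared promoter sequence, which the choice by symbol did not use directly. A choice by family name takes in gene copies, however, so the promoters are not independent. Hist1h2bq and Hist1h2br, for example, have the same 200 bases before the start, in windows that lie apart. RefSeq on GRCm38.p6 gave a promoter from 250 bases before to 50 after the start for 61 of the 67 members. CCAAT was present on either strand in 85.2% of these, against 37.9% of all 27025 promoters of the same length. It was present in all promoters of H1, H2A, H2B and H3 genes and in 3 of 12 of H4 genes. TATAAA was present in 57.4% against 14.2%, the octamer ATTTGCAT in 19.7% against 1.75% and the H1 box AAACACA in 14.8% against 7.14%. The octamer lay in 6 of 17 H2A and 6 of 16 H2B promoters and in none of the other classes, and the H1 box in 5 of 6 H1, 2 of 17 H2A and 2 of 16 H2B promoters. Neighbouring genes can share a promoter window, and the 61 windows made up 51 separate stretches, 10 of which each held the windows of 1 H2A and 1 H2B gene. The 12 promoters with the octamer lay on 9 stretches, the 52 with CCAAT on 42, the 35 with TATAAA on 29 and the 9 with the H1 box on 8. None of the letters searched for contains another, and a match is a description of the sequence only.

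The 200 bases before the RefSeq start of Hist1h1c, whose level differed most clearly between libraries, and of Hist1h4i, the highest member, are shown with the motifs in capitals. Hist1h1c (chr13:23738607-23738806, plus strand) holds the H1 box and CCAAT, and Hist1h4i (chr13:22041363-22041562, minus strand) holds TATAAA and no CCAAT.
Hist1h1c: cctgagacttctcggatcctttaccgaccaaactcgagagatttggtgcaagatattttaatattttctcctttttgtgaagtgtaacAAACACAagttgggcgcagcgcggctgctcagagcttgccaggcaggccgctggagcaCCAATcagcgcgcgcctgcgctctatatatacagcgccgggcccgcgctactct
Hist1h4i: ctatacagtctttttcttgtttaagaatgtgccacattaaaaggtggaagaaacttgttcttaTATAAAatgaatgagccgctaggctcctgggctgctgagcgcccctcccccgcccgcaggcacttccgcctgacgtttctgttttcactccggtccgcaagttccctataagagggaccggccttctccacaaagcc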

How the data were processed

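RNA of the 6 libraries was selected with oligo(dT), made into unstranded TruSeq libraries and sequenced as paired 100-base reads. The authors aligned the reads to GRCm38 with TopHat 2.1.1 and deposited FPKM from Cufflinks and Cuffdiff 2.1.1, 1 value per locus. Their processing notes also name STAR 2.4.0b. Cuffdiff scaling and gene models affect FPKM, most for short genes.

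Groups were taken from the labels. Python 3.11.15 with NumPy 2.4.6, pandas 2.3.3, SciPy 1.17.1 and matplotlib 3.10.9 gave log2 ratios of FPKM with 0.01 added, for loci above 0 in both libraries and at 1 FPKM or more in at least 1, with a difference counted past 2-fold. With 1 library per condition no test was run. Depth was fitted to the steps of low FPKM in 3378 annotated single-transcript loci, and the fit was tested on simulated data. The counts past 2-fold were tested only on changes set without noise. That test says nothing of counting error at low levels.

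Transcripts and spans came from GENCODE M21 and promoters from RefSeq. Members and lists were chosen with earlier results of these data known. Genes named were members with a mean FPKM of 5 or more, the 3 highest of each class, the 3 largest increases and decreases per comparison, testis members, Hist1h2af, every gene of the companion lists, Sppl2b and St14; others were chosen after their values were seen.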

Additional observations from a re-analysis of the deposited data

Results flagged for a closer look

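Of the 5 members with a PMA ratio in both lines, 4 had ratios of opposite sign in 427 cells and in the cells labelled KD, with 1 library on each side, and the difference was not tested. For Hist1h3c the log2 ratio was 1.35 in 427 cells and -0.61 in KD, a difference of 1.95. For Hist1h4n it was 0.83 and -1.08, a difference of 1.91, and for Hist1h4i 0.17 and -0.66, a difference of 0.83. For Hist1h2bj it was -0.12 and 0.26, a difference of -0.38. Hist1h3c had 5 and 12 estimated fragments in 427 cells with DMSO and PMA and 12 and 10 in KD.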

How the results depend on the processing

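The counts of members past 2-fold moved by over 1.5 times, or to or from 0, in 37 of 82 recomputations. Counts are given as higher and lower, in the order PMA in 427, PMA in KD, KD against 427, EICD and KD/GFP against KD with DMSO. They were 1 and 1, 0 and 2, 3 and 0, 1 and 2, and 4 and 1. Adding 1 FPKM to both gave 0 and 0, 0 and 0, 0 and 0, 0 and 1, and 2 and 0. With 0.1 FPKM added, 1 member was past 2-fold downward for PMA in KD. With a minimum of 0.1 FPKM they were 3 and 3, 5 and 8, 8 and 4, 4 and 9, and 12 and 2, and with no minimum 3 and 4, 5 and 8, 8 and 5, 4 and 9, and 12 and 2. At 1.5-fold they were 3 and 2, 0 and 4, 3 and 1, 1 and 4, and 5 and 2. With the same sum without the 10 largest loci, 1 member was past 2-fold downward for EICD and 2 for KD/GFP, and the median ratio of all loci went from 0.07 to 0.35 for EICD and from -0.08 to -0.35 for KD/GFP. The cause was not tested, except that a lower minimum admits more members. Upper-quartile scaling kept each count within these limits. Summing rows of a symbol could change nothing, because each member had 1 row, and the 82 recomputations include it. Among single genes, 191 recomputations stayed on their side of the cut, 15 fell below it and 11 came past it. The cut was 2-fold except in the 1.5-fold setting, where the ratios were unchanged and only the cut was lower. None that had passed 2-fold changed direction. For the H1 genes in KD/GFP, recomputed by alternatives chosen after seeing the data, 5 were past 2-fold, and 1 with 1 FPKM added. No paired analysis was possible because each condition has 1 library and the labels carry no replicate numbers, and no replicate could be left out. Depth limits members below about 1 FPKM, most of which rest on fewer than 10 fragments.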
